A study of Mus musculus with 12 samples.

Results

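Whey acidic protein (WAP) domain inhibitors are small secreted proteins built around a core that is held together by disulfide bonds, and many of them block serine proteases or kill bacteria at epithelial surfaces. Most of the mouse genes lie in a cluster on chromosome 2, where they are mixed with the genes of the seminal vesicle secretory proteins, and several are known from the male genital tract and its fluids. The set described here was named gene by gene and not chosen by its values: Wfdc1, Wfdc2, Wfdc3, Wfdc5, Wfdc8, Wfdc12, Wfdc15a, Wfdc15b and Slpi. Earlier results of these data were, however, known when the set was named. All 9 were found among the 23284 genes of the deposited table, and 8 of them lie on chromosome 2, with Wfdc1 on chromosome 8.

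Expression was measured by poly-A selected RNA sequencing of whole prostate tissue from mice 4 months old. The groups were 6 libraries from Nkx3.1 -/- mice, called null, and 6 from Nkx3.1 +/+ mice, called wild type, all on a hybrid background of 129/SvImJ and C57Bl/6J. The labels do not name the prostate lobes taken or say whether libraries came from separate animals, and the spread that the p-values rest on is that of these libraries and may be only technical. Values are on the log2 scale as deposited, and a difference is the mean of null minus the mean of wild-type libraries on that scale. The 1101 olfactory receptor genes, which prostate is not known to use, had a median value of 2.85, with the 95th percentile at 3.50, so a value under 3.50 is treated as not detected. Depth per library is unknown because the table holds no counts.

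Some libraries stood closer to each other than to the rest of their genotype. The null sets were libraries 1, 2 and 5 against 3, 4 and 6, and the wild-type sets 1 to 3 against 4 to 6. In 3633 genes averaging 10 or more, the median absolute difference between null libraries was 0.0535 to 0.112 within a set and 0.122 to 0.169 across sets, and between wild-type libraries it was 0.0388 to 0.0702 within a set and 0.103 to 0.129 across sets. The sets were found in these same data, so smaller differences within than across sets are not separate evidence for them. The labels give no batch. Results are given over all 12 libraries, and for each tested member, and as counts for the lists, also over the 4 set means. The prostate markers Pbsn and Tgm4, both encoding abundant secretions of the mouse gland, stood at 15.83 ± 0.18 and 19.17 ± 0.21 in null libraries and at 17.99 ± 0.059 and 19.57 ± 0.098 in wild-type libraries (SD, n = 6 each).

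Of the 9 genes, 7 were at 4 or more in at least 6 libraries and were tested, and Wfdc5 and Wfdc15a were too low. Wfdc12, Wfdc15b and Slpi were at 4 or more in every library of 1 genotype only, and so passed through that genotype, whereas the other 4 tested genes reached 4 in all 12 libraries. Over all 12 libraries 3 genes rose in null prostate (Wfdc15b, Wfdc12 and Wfdc8), 3 fell (Wfdc3, Slpi and Wfdc2) and Wfdc1 was not called. A call was common in these data: 53.1% of the 15096 tested genes passed an adjusted p of 0.05 (limma), 28.0% higher and 25.1% lower in null. The share of calls that were higher was 52.7%, and 40.9% after an upper quartile shift. Calls of at least 2-fold were less common, at 2.99% higher and 4.01% lower, and the members had 3 and 2 of them. The libraries of the genotypes did not overlap in 4 tested members and in 32.6% of all tested genes, and over set means 4 members and 14.5% of all genes were called. These 4 members were Wfdc15b, Wfdc8, Wfdc3 and Slpi in both counts. The median difference of the tested members was -0.15, beside 0.012 for all tested genes. Among the members the largest rise was 6.62 (Wfdc12) and the largest fall 3.36 (Wfdc3), both inside the same gene cluster. Wfdc12 overlapped between genotypes and was not called over set means. Wfdc15b, which was called in both ways, came next at 6.59.

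**Figure D1:**
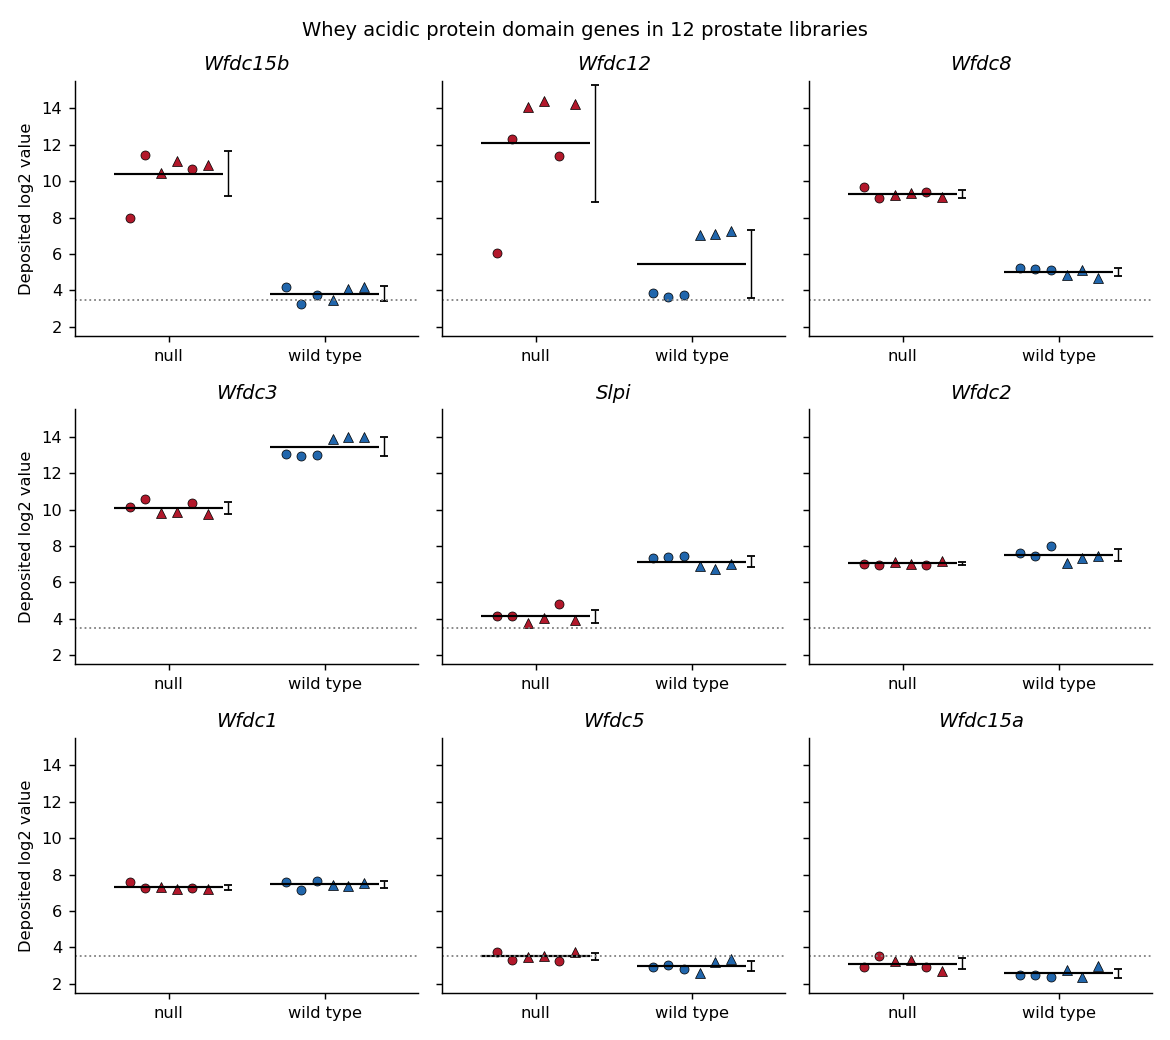
Deposited log2 values of the 9 genes, with null libraries (red) left of wild-type libraries (blue). Circles are null libraries 1, 2 and 5 and wild-type libraries 1 to 3, triangles the other libraries, horizontal lines the means, bars 1 SD, and the dotted line is the 3.50 level of undetected genes. Wfdc15b, Wfdc8, Wfdc3 and Slpi separated the genotypes without overlap, while Wfdc12 overlapped through null library 1 at 6.04.

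Wfdc15b, also called SWAM1, encodes a small protein with a lone WAP domain that is known as antibacterial in mouse. It stood at 7.98, 11.43, 10.45, 11.13, 10.65 and 10.87 in null libraries 1 to 6, against 4.22, 3.25, 3.75, 3.48, 4.09 and 4.17 in wild-type libraries 1 to 6. Every null library lay above every wild-type library, and null library 1 lay 2.47 under the next null library. The difference of 6.59 (SE 0.50, adjusted p = 5.31e-07 with limma; adjusted p = 0.000584 over set means) was at rank 10 among the rises of 15096 tested genes. A two-sided exact permutation test over the 12 libraries gave p = 0.00216, the smallest it can give. Wild-type values lay from just under to just over the 3.50 of undetected genes, so the fitted 96.5-fold ratio is limited by that level. Without null library 1 the difference was 7.08.

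Wfdc12, also called Swam2, encodes a related antibacterial protein of the same simple build. It stood at 6.04, 12.30, 14.07, 14.40, 11.38 and 14.26 in null libraries 1 to 6, against 3.86, 3.62, 3.77, 7.06, 7.12 and 7.27 in wild-type libraries 1 to 6. Null library 1 lay under wild-type libraries 4 to 6, so the genotypes overlapped, and each genotype was split by its sets. The means were 12.07 ± 3.20 in null and 5.45 ± 1.87 in wild-type libraries (SD, n = 6 each), a difference of 6.62 (SE 1.49, adjusted p = 0.00350 with limma; two-sided exact permutation p = 0.00866). Over the 4 set means the call was lost, with adjusted p = 0.199. It was also lost without null libraries 3, 4 and 6 (difference 4.46, adjusted p = 0.0566) and when wild-type libraries 1 to 3 were left out (difference 4.92, adjusted p = 0.0681). The set means were 9.91 in null libraries 1, 2 and 5, 14.24 in null libraries 3, 4 and 6, 3.75 in wild-type libraries 1 to 3 and 7.15 in wild-type libraries 4 to 6. Either null set stood above either wild-type set, and the gap between sets of a genotype was 4.34 in null and 3.40 in wild-type libraries. In the GENCODE annotation 125 of its 775 exonic bases are also covered by an antisense RNA, and the library kit named in the labels is not said to keep strand, so reads of that stretch cannot be assigned.

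Wfdc8 encodes a protein that joins WAP domains with a Kunitz domain, another fold of serine protease inhibitors. It stood at 9.69, 9.08, 9.25, 9.33, 9.43 and 9.12 in null libraries 1 to 6, against 5.22, 5.16, 5.13, 4.85, 5.10 and 4.69 in wild-type libraries 1 to 6. The values within each genotype lay close together and far from the other genotype. The means were 9.32 ± 0.22 in null and 5.03 ± 0.21 in wild-type libraries (SD, n = 6 each), a difference of 4.29 (SE 0.12, adjusted p = 1.58e-12; adjusted p = 0.000471 over set means). This was a 19.6-fold ratio at rank 21 among the rises. Unlike Wfdc15b and Wfdc12, Wfdc8 in null library 1 was the highest of the null libraries.

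The stretches before the starts of these 3 genes are shown because these are the members that rose, and because Wfdc8 shares its start region with another gene that rose. RefSeq lists 2 starts for Wfdc8 (minus strand), and the one shown lies 74 bases from that of Wfdc6b (plus strand) on GRCm38.p6, with the genes running away from each other. In the GENCODE transcripts, 105 exonic bases of the 2 genes overlap. Wfdc6b moved with Wfdc8, as given further on. The sequences are the 250 bases before each start, 5′ to 3′ on the strand of the gene, from RefSeq on GRCm38.p6, which differs from the mm9 build named for the reads. Wfdc15b is chr2:164221664-164221913 (minus strand), Wfdc12 is chr2:164190559-164190808 (minus strand) and Wfdc8 is chr2:164613627-164613876 (minus strand). Capitals mark letters found by a search on both strands for TAAGTA (the consensus bound by NKX3.1), AGAACA (the hexamer of androgen response elements), TATAAA, and an inverted repeat of AGAACA with 3 bases between.
Wfdc15b: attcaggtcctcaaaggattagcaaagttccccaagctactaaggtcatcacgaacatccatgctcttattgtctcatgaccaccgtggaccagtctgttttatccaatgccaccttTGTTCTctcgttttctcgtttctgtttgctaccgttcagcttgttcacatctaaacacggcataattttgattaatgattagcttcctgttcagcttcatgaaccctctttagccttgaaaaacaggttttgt
Wfdc12: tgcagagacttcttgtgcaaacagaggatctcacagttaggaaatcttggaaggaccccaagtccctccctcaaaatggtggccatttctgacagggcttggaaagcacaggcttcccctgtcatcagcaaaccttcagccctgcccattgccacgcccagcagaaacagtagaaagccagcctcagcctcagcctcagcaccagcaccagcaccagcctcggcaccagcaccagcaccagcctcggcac
Wfdc8: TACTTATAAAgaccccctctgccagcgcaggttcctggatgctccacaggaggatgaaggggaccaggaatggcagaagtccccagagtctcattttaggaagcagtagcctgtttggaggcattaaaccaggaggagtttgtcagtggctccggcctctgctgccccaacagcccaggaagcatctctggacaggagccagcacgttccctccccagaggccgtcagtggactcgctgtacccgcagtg
Wfdc15b holds AGAACA on the opposite strand, from 133 to 128 bases before its start. Wfdc8 holds TAAGTA on the opposite strand at 250 to 245 and TATAAA at 246 to 241 bases before the start shown, which overlap. No match was found before the other Wfdc8 start or in Wfdc12. Of all 32851 promoters in the table, 6.62% hold TAAGTA, 16.1% AGAACA, 12.4% TATAAA and 0.00913% the inverted repeat in a window of the same length. RefSeq sequences were matched for 7 of the 9 members, with 9 promoters, of which 1 held each of the hexamers and 0 the inverted repeat. TATAAA was added to the search after the sequences were seen.

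Wfdc3, whose human counterpart carries several WAP domains, was the highest member of the set in wild-type libraries on the deposited scale. It stood at 10.16, 10.58, 9.83, 9.90, 10.39 and 9.78 in null libraries 1 to 6, against 13.04, 12.92, 13.02, 13.85, 13.98 and 13.97 in wild-type libraries 1 to 6. The genotypes did not overlap, and wild-type libraries 1 to 3 lay 0.94 under wild-type libraries 4 to 6. The means were 10.10 ± 0.33 in null and 13.47 ± 0.52 in wild-type libraries (SD, n = 6 each). It fell by 3.36 (SE 0.23, adjusted p = 2.01e-07; adjusted p = 0.00958 over set means), so that wild-type values were 10.3-fold those of null. Its fall was at rank 49 among 15096 genes.

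Slpi encodes secretory leukocyte protease inhibitor, a pair of WAP domains that inhibits neutrophil elastase and cathepsin G. It stood at 4.17, 4.16, 3.77, 4.03, 4.83 and 3.93 in null libraries 1 to 6, against 7.33, 7.41, 7.43, 6.89, 6.72 and 7.03 in wild-type libraries 1 to 6. The genotypes did not overlap, and null values lay close above the level of undetected genes, so the fall may be understated. Slpi fell by 2.99 (SE 0.18, adjusted p = 7.89e-09; adjusted p = 0.00406 over set means), at rank 71 among the falls. Wild-type libraries 1 to 3 were higher than libraries 4 to 6 by 0.51. In bulk tissue, fewer cells of a type and less RNA per cell cannot be told apart. Macrophage markers moved in the same direction: 6 of 6 tested fell, their summed level was 10.37 to 10.76 in null and 11.17 to 12.10 in wild-type libraries, and wild-type libraries 1 to 3 were again the highest. Over set means 1 of the 6 was called, C1qc. Of all tested genes, 25.1% fell over all libraries and 14.5% were called over set means. Most neutrophil markers were at or near the level of undetected genes. Means under 3.50 were 7 of 9 in null and 6 of 9 in wild-type libraries. The summed levels of all 9 were 6.43 to 6.87 in null and 6.89 to 7.24 in wild-type libraries. The 1 that was tested, Csf3r, stood at 4.79 ± 0.24 in null and 5.72 ± 0.32 in wild-type libraries (SD, n = 6 each). It fell by 0.92 (adjusted p = 0.000226 with limma), but not over set means (adjusted p = 0.0584). The part of these cells in the Slpi result was not tested.

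Wfdc2 encodes a secreted epithelial protein that was first described in the human epididymis. It stood at 6.99, 6.99, 7.10, 7.01, 6.97 and 7.20 in null libraries 1 to 6, against 7.61, 7.47, 8.03, 7.09, 7.37 and 7.45 in wild-type libraries 1 to 6. The genotypes overlapped at 7.09 to 7.20, and the spread was larger in wild-type libraries. Wfdc2 fell by 0.46 (SE 0.12, adjusted p = 0.00623 with limma; two-sided exact permutation p = 0.00649), and this was lost over set means (adjusted p = 0.152), without null libraries 1, 2 and 5 (difference -0.40, adjusted p = 0.0567), with libraries 4 to 6 alone for wild type (difference -0.26, adjusted p = 0.0621) and against a 1.5-fold change (adjusted p = 1). Of 4 luminal epithelial markers, 3 fell and 1 rose over all libraries, and over set means 1 was called, Cd24a, which fell. Of all tested genes, 25.1% fell and 28.0% rose over all libraries, and 14.5% were called over set means. The luminal markers had a summed level of 15.10 to 15.45 in null and 15.42 to 15.66 in wild-type libraries. Their part in the Wfdc2 result was not tested.

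Wfdc1, the member on chromosome 8, encodes a secreted protein that was first isolated from rat urogenital stromal cells. It stood at 7.58, 7.24, 7.33, 7.20, 7.28 and 7.23 in null libraries 1 to 6, against 7.59, 7.17, 7.67, 7.41, 7.38 and 7.53 in wild-type libraries 1 to 6. The ranges overlapped almost fully. The difference of -0.15 (SE 0.095) did not pass (adjusted p = 0.204 with limma; two-sided exact permutation p = 0.136). Of 8 smooth muscle markers, 0 were called by limma, 0 had an unadjusted p under 0.05 and 8 overlapped between genotypes, with summed levels of 15.99 to 16.76 in null and 16.29 to 16.49 in wild-type libraries. The exact rank-sum test did not call Wfdc1 either.

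Wfdc5 and Wfdc15a were near the level of undetected genes in both genotypes and were not tested. Wfdc5 lay at 3.27 to 3.77 (median 3.50) in null and 2.58 to 3.37 (median 2.98) in wild-type libraries, and Wfdc15a lay at 2.68 to 3.54 (median 3.08) in null and 2.36 to 2.96 (median 2.49) in wild-type libraries. A fit with no filter, in which 33.8% of 23284 genes were called, gave differences of 0.52 for each, with adjusted p = 0.0286 for Wfdc5 and adjusted p = 0.0354 for Wfdc15a. Wfdc15a lies between Wfdc12 and Wfdc15b in the annotation. No window of 50 bases in its transcript occurs in another gene, and the same holds for Wfdc15b, with 0 of 561 windows shared.

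In the annotated order on chromosome 2, runs of neighbours that rose lay beside genes that fell or changed little. From the first to the last member of the cluster, with 5 protein-coding genes on each side, the annotation holds 42 genes, of which 41 were in the table and 28 were tested. Inside the cluster 19 genes were tested, of which 13 rose, 4 fell and 2 were not called, with 11 rises and 2 falls of at least 2-fold. Over set means 8 rises and 3 falls were called. Of the 10 flanking genes, 9 were tested, 4 rose and 0 fell by limma, and 0 differed by 2-fold. Over set means 1 of the 9 was called. Of all 15096 tested genes, 28.0% rose and 25.1% fell by limma, and 7.01% were called with at least 2-fold. Over set means 14.5% of them were called. The median difference of the tested genes was 4.29 inside and 0.080 in the flanks. Inside, 12 genes in the table were not tested. Svs3a, Svs3b, Svs4, Svs6, Wfdc6b, Wfdc12 and Wfdc15b reached 4 in every library of null only. They passed the filter through the genotype where they were high, and Slpi passed through wild type. The median inside therefore leans towards genes that rose, and the 2 medians are not a like comparison. Leaving aside the members and the 6 Svs genes, 7 of the 17 genes inside were tested, with 4 higher, 1 lower and 2 not called and a median of 0.26.

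The rises came in a pair of blocks that were separated by genes that fell, rose by at most 0.72 or were not called or tested. The first ran from Wfdc12 over Wfdc15b to the Svs genes, which encode secreted proteins of the seminal vesicle. Svs4 rose by 11.71 (adjusted p = 1.32e-06), Svs3a by 10.28 (adjusted p = 6.14e-07), Svs3b by 7.50 (adjusted p = 6.35e-06) and Svs6 by 6.36 (adjusted p = 2.03e-06), and all 4 were also called over set means. The block ended at Slpi, which fell beside Svs5, a gene that rose by 9.28 (adjusted p = 0.000103, and 0.122 over set means). The second was made of Eppin, Wfdc8 and Wfdc6b, next to each other. Wfdc6b stood at 9.04, 8.49, 8.32, 8.58, 8.70 and 8.50 in null libraries 1 to 6, against 4.03, 4.35, 3.88, 3.73, 3.86 and 3.70 in wild-type libraries 1 to 6, a rise of 4.68 (SE 0.14, adjusted p = 2.99e-12). Eppin, named Spinlw1 in the table and known in human as a sperm-surface inhibitor with WAP and Kunitz domains, rose by 2.22 to 6.58 ± 0.27 in null, against 4.37 ± 0.11 in wild-type libraries (SD, n = 6 each; adjusted p = 5.08e-09). Of the transcript windows of Wfdc6b, 46.8% occur in Wfdc6a or Wfdc8. Wfdc6a was not tested and stood at 4.31 ± 0.51 in null and 3.87 ± 0.22 in wild-type libraries (SD, n = 6 each). For Wfdc8 the shared part was 1.55%, all with Wfdc6b. Wfdc3 fell at the far end of the cluster, beside Dnttip1, whose difference of -0.073 was not called (adjusted p = 0.308).

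**Figure D2:**
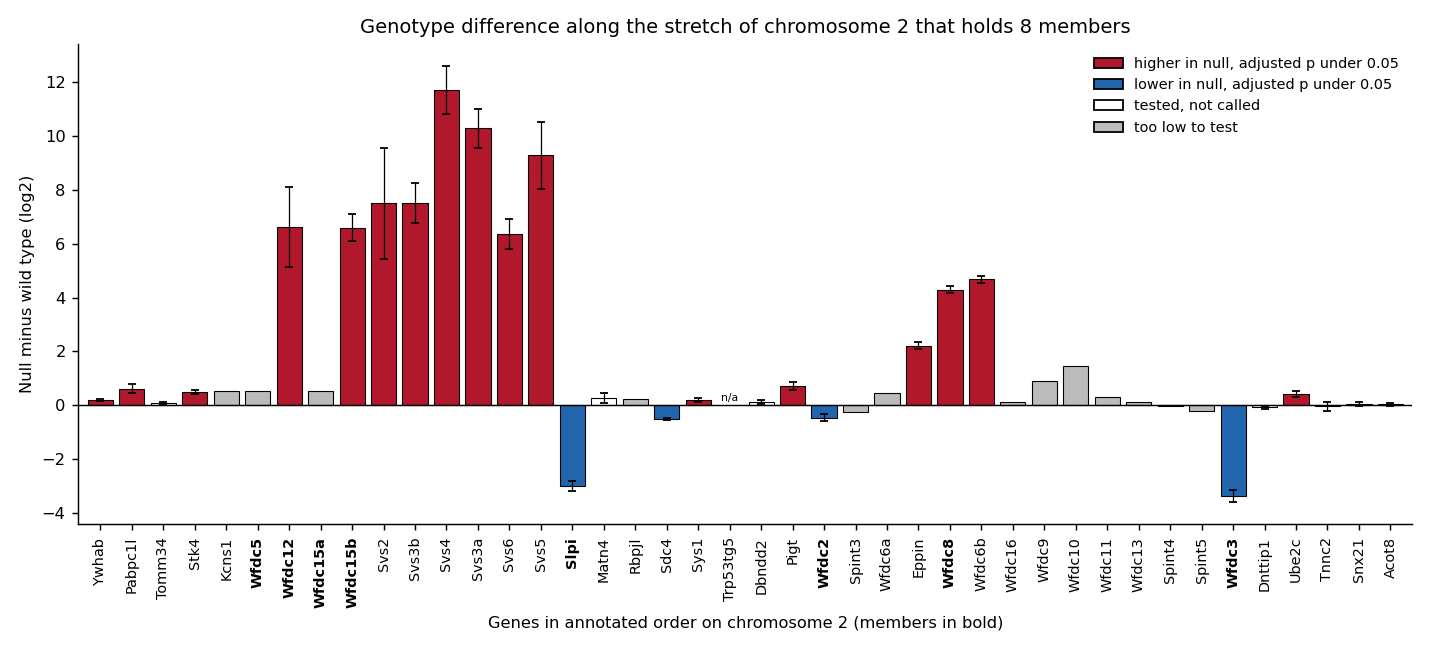
Null minus wild-type difference (log2, vertical axis) of the genes in their annotated order on chromosome 2 (horizontal axis, not to distance), with standard errors for tested genes. Red bars rose, blue bars fell, white bars were tested and not called, grey bars were too low to test, members are in bold and n/a marks a gene not analysed here. The tallest bar of a member is Wfdc12 at 6.62, and Slpi at -2.99 and Wfdc3 at -3.36 point down between or beside genes that rose or were not called.

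Seminal vesicle transcripts moved with Wfdc15b and, less closely, with Wfdc12. All 9 seminal vesicle secretory genes on the list rose over all libraries, and 6 of them also over set means. Of all tested genes, 28.0% rose over all libraries and 14.5% were called over set means. Svs3a, Svs3b, Svs4, Svs6 and Sva reached 4 in every library of null only. They were tested through that genotype, so their calls as higher are not separate support. The summed level of the 9 genes was 16.85 to 20.39 in null and 8.09 to 11.81 in wild-type libraries. In wild-type libraries 4 of the 9 had a mean under 3.50. The part of seminal vesicle tissue or of its genes in the rise of the members was not tested. The null libraries had the same order in Wfdc15b, lowest first, as in 4 of these 9 genes (Svs3a, Svs3b, Sva and Ceacam10): library 1, then 3, 5, 6, 4 and 2. Wfdc12 shared its order with 0 of the 9. Svs2, which encodes the main clotting protein of the copulatory plug, stood at 17.86, 19.36, 11.62, 12.56, 18.86 and 12.13 in null libraries 1 to 6, against 11.17, 11.26, 11.15, 4.53, 4.81 and 4.52 in wild-type libraries 1 to 6. Its rise of 7.49 was called over all libraries (adjusted p = 0.0112) and not over set means (adjusted p = 0.358). Wfdc12 and Svs2 therefore ran in opposite directions between the sets of both genotypes, except that null library 1 was under libraries 2 and 5 in each.

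The genes with profiles closest to each member were found as those with the smallest root mean square difference over the 12 libraries, each gene centred on its own mean, as a description. For Wfdc15b they were Ceacam10 (0.43), Svs6 (0.61) and Svs3b (0.63), all of the seminal vesicle list. For Wfdc12 the closest genes lay far off, with Gm4956 at 1.55, Sva at 1.58 and Svs3b at 1.63. Wfdc8 was closest to Wfdc6b (0.24), followed by Cd52 (0.44), which encodes a short glycoprotein of lymphocytes and of the male genital tract, and by Gabrp (0.44), a GABA receptor subunit. Wfdc3 was closest to Ank (0.16), a membrane protein of pyrophosphate export, which stood at 8.92 in null and 12.32 in wild-type libraries on average. Slc27a2 (0.22), a fatty acid CoA ligase, and G6pc2 (0.25) came next. Slpi was closest to Ren2 (0.34), a renin gene, to Papss2 (0.35), which makes the sulfate donor of the cell, and to 5430419D17Rik (0.36).

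**Figure D3:**
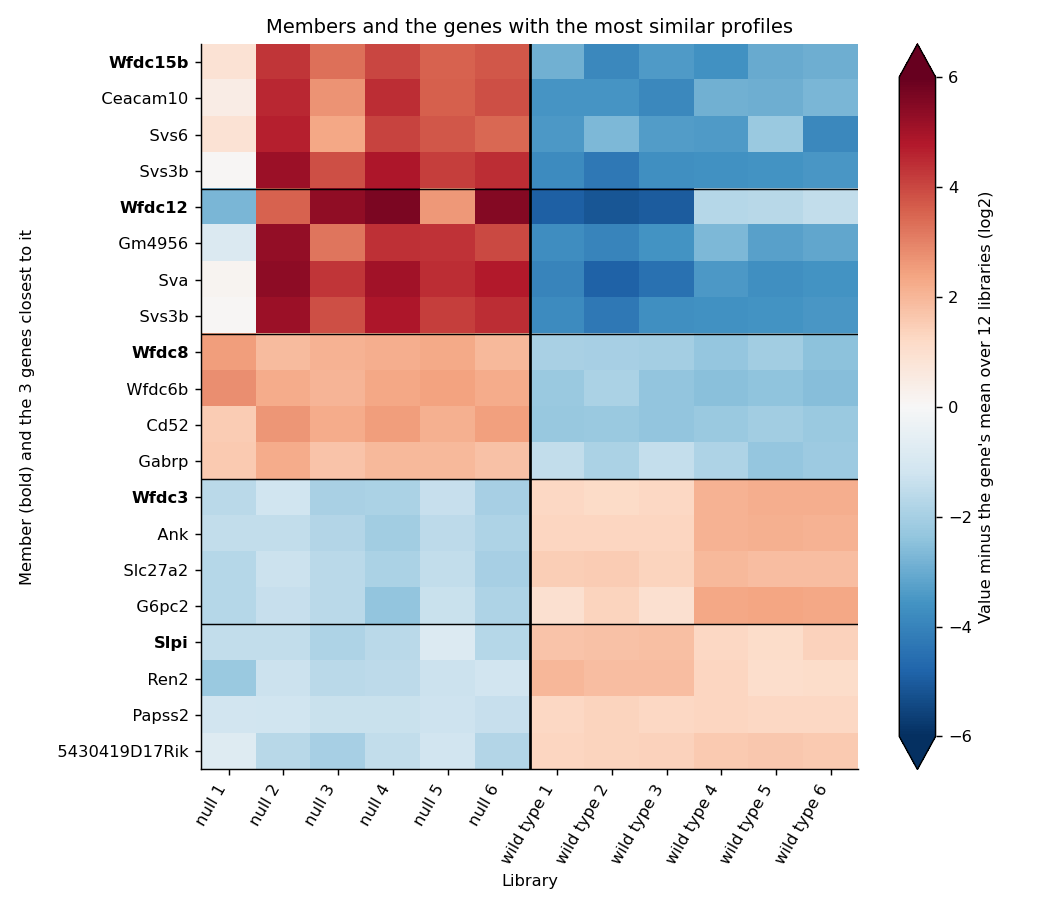
Heat map of the 5 members that changed at least 2-fold (bold) and of the 3 genes with the closest profile under each, in 12 libraries with null on the left. Colour gives the value minus the mean of the gene over all libraries (log2), red above and blue below. Null library 1 is paler than the other null libraries in Wfdc15b and its neighbours, and Wfdc12, unlike Wfdc15b and Wfdc8, shows blue in that library and a step between wild-type libraries 3 and 4 of over 3 units.

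Other genes with WAP or Kunitz domains also moved both ways. Of 23 on the list, 11 were tested, with 4 higher, 5 lower and 2 not called and a median difference of -0.28. Of all tested genes, 28.0% were higher and 25.1% lower, and 14.5% were called over set means. Wfdc6b passed the filter through null and Wfdc18 through wild type. Over set means 6 were called: Wfdc6b, Eppin, Spint2, Papln, Wfdc17 and Tfpi, which was not called over all libraries (adjusted p = 0.0559, and 0.0481 over set means). Besides Wfdc6b and Eppin, Spint2, which encodes a Kunitz inhibitor of epithelial membrane proteases, rose by 1.30 to 15.15 ± 0.082 in null, against 13.85 ± 0.046 in wild-type libraries (SD, n = 6 each; adjusted p = 7.87e-11). Papln, which encodes an extracellular matrix protein, rose by 0.96 (adjusted p = 5.20e-06). Wfdc17, named Gm11428 in the table and known from macrophages and microglia, fell by 1.68 to 4.35 ± 0.21 in null, against 6.03 ± 0.32 in wild-type libraries (SD, n = 6 each; adjusted p = 5.77e-07), in the same direction as the macrophage markers given for Slpi. Wfdc18, named Expi in the table, fell by 1.59 (adjusted p = 0.00192), but not over set means (adjusted p = 0.129). It stood at 3.65 to 4.23 in null libraries, against 4.51 to 4.82 in the first wild-type set and 6.29 to 6.48 in the second, which holds libraries 4 to 6. Wfdc12 and Wfdc3 had the same step between the wild-type sets, upwards in libraries 4 to 6, while Slpi, Wfdc2 and Wfdc8 had the opposite one.

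**Figure D4:**
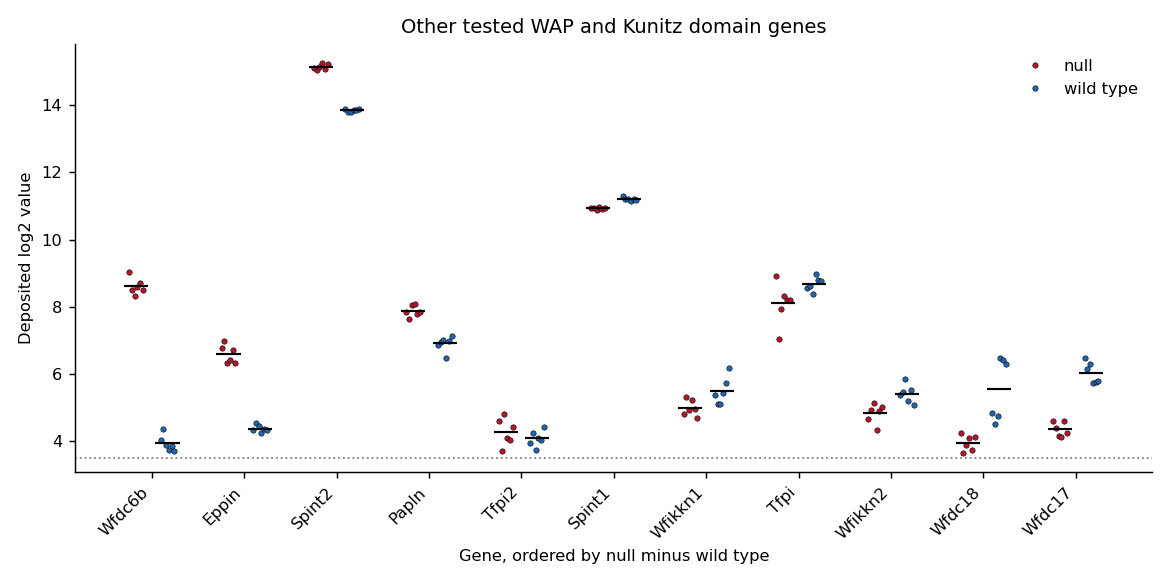
Deposited log2 values of the 11 other tested WAP and Kunitz domain genes, ordered by difference, with null libraries (red) left of wild-type libraries (blue), lines at the means and a dotted line at the 3.50 of undetected genes. Wfdc6b, Eppin and Spint2 rose without overlap at the left end, and Wfdc18 and Wfdc17 fell without overlap at the right end.

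Serine protease genes set beside Slpi, not all of them established targets, and genes of known SLPI partners were mostly undetected or little changed. Of 16 serine protease genes of leukocytes and of pancreatic type, 4 were tested and 1 passed, and Elane, which encodes neutrophil elastase, lay at 3.22 ± 0.33 in null and 3.27 ± 0.57 in wild-type libraries (SD, n = 6 each), under the 3.50 of undetected genes. Cela1, a pancreatic-type elastase, fell by 1.53 to 5.90 ± 0.24 in null, against 7.43 ± 0.23 in wild-type libraries (SD, n = 6 each; adjusted p = 2.89e-07). Its fall was also called over set means (adjusted p = 0.0111). All 4 genes of known SLPI partners were called with differences under 0.4: Grn, which encodes progranulin, rose by 0.35 and Plscr4 by 0.33, and Anxa2 fell by 0.37 and Plscr1 by 0.37. Of these 4, 0 passed over set means with limma. Of all tested genes, 53.1% were called over all libraries and 14.5% over set means.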

How the data were processed

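Per the labels' protocols, 12 prostate libraries were made from poly-A RNA with TruSeq kits and read on a HiSeq instrument. Tools named without roles in the submitters' processing notes are DESeq, Cufflinks 2.0.2, TopHat2 2.0.4 and CASAVA 1.8.2, and the build is mm9. The values the authors deposited are on a log2 scale from 1.07 to 21.6. The counting and the transformation are steps not given in the sources used here.

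Tests on the deposited values used limma 3.58.1 in R 4.3.3, with trend and robust moderation, genotype as the only term and Benjamini-Hochberg adjustment over 15096 genes at 4 or more in at least 6 libraries. The fit was tested on simulated data. Exact permutation tests used all 924 arrangements. Summed levels are log2 of the sum of values taken back to the linear scale. Members and lists were chosen with earlier results of these data known, as were the sets of libraries. All 9 members are named, with up to 6 called genes of each other list by size, or the 2 of highest mean where none was called; Elane, Wfdc6a and Dnttip1 were named after their values were seen. Protein sequences were not used here. The level of the targeted gene is not reported here. Alternatives were quantile normalization, an upper quartile shift, limma without trend or robust moderation, a 1.5-fold threshold, an exact rank-sum test, a filter at 5 or none, set means, and each library or set left out.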

Additional observations from a re-analysis of the deposited data

Results flagged for a closer look

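In 40 groups of 6 libraries, 3 held a library that stood apart by Dixon's test, which compares the gap to the nearest library with the range of the group. Chance flags about 1 in 20 groups. All 3 were null library 1. It was the lowest null library in Wfdc15b, at 7.98, and in Wfdc12, at 6.04, and the highest in Wfdc1, at 7.58. Without it the difference was 7.08 for Wfdc15b and 7.83 for Wfdc12 (adjusted p = 0.000110), both still called, and -0.20 for Wfdc1 (adjusted p = 0.0747), still not called. The same library was the lowest null library in 6 of 9 seminal vesicle secretory genes and had the highest smooth muscle sum, at 16.76, and the highest adipocyte sum, at 10.44, of the 12 libraries. The other null libraries had adipocyte sums of 7.22 to 9.63, and wild-type libraries 7.48 to 8.81. The relation between these values was not tested.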

How the results depend on the processing

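Over 24 other settings no member changed direction. Wfdc15b, Wfdc8, Wfdc3 and Slpi were called in all 24 and Wfdc1 in 0 (adjusted p = 0.0661 to 1 with limma and the rank-sum test). Wfdc12 lost its call in 3 settings and Wfdc2 in 4, named with their values beside the results. The number of members called was 3 higher and 3 lower with each single library left out. With no filter 5 were called higher, which adds Wfdc5 and Wfdc15a. Both lay near the level of undetected genes in null and wild-type libraries, so these calls are not read as rises. Over all genes, 4224 were called higher and 3789 lower. Set means, which leave 4 values a gene, gave 1144 and 1051. The test against a 1.5-fold change, which asks for a larger difference, gave 487 and 569. Leaving out single libraries gave 4022 to 4185 higher and 3518 to 3754 lower. The upper quartile shift gave 3367 higher and 4869 lower, with the median of all genes moved by -0.071. Across all settings the difference was 6.19 to 7.08 for Wfdc15b, 4.46 to 8.79 for Wfdc12 and 4.15 to 4.44 for Wfdc8, and -3.83 to -2.89 for Wfdc3, -3.24 to -2.73 for Slpi and -0.66 to -0.26 for Wfdc2. No paired analysis was possible because the labels give no replicate numbers. Values near 3.50 limit the differences of Wfdc15b, Wfdc12 and Slpi, and depth is unknown.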

Other observations

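Wfdc9 and Wfdc10, low members of the same cluster that were not tested, were detected in part of the null libraries. Wfdc10 stood at 4.63, 5.89, 3.31, 3.49, 5.70 and 2.12 in null libraries 1 to 6, and at 2.41 to 3.21 in wild-type libraries. The libraries over 4, null 1, 2 and 5, were those with Svs2 over 17 and with Crisp1, which encodes a secreted protein of the epididymis that coats sperm, at 8.40, 11.31 and 10.42. Crisp1 stood at 2.73 to 3.74 in the other null libraries and at 2.15 to 4.32 in wild-type libraries. The other epididymal markers Lcn5, Lcn8 and Cst8 had means of 2.95, 2.99 and 2.97 in null and 2.83, 2.95 and 2.67 in wild-type libraries, under the 3.50 of undetected genes.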
